A study of Mus musculus with 6 samples.

Results

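The genes described here are the microphthalmia family of transcription factors, Mitf, Tfeb, Tfe3 and Tfec, and the folliculin genes Flcn, Fnip1 and Fnip2, whose products control where these factors reside in the cell. They were chosen by name, after the group values of this same comparison were known, and 6 of the 7 have a row in a table of 12016 genes. RNA was sequenced from the pancreas of 3 male OCaR1-/- mice and 3 male wild-type C57Bl6/N mice, all aged 3 weeks and untreated. The strain field of the labels reads C56Bl6/N for all 6 mice. OCaR1 is, as background, the product of Tmem63a, a channel protein of acidic organelles. The labels give no further allele, and neither littermate status nor pooling is stated. The authors deposited 1 FPKM value per genotype (fragments scaled to transcript length and library size), which combines the mice of that genotype. The table holds no column for any single mouse, so no SD or n of its own stands beside a level, depth is unknown, and overlap between mice cannot be judged. A gene is said below to be called, or to have risen or fallen, where Cuffdiff, the test the authors ran, gave a q-value under 0.05.

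Mitf, Tfeb, Tfe3 and Tfec are basic helix-loop-helix leucine zipper proteins that bind DNA as dimers with one another, at the E-box CACGTG and at its extended form in promoters of lysosomal genes, the CLEAR element. With ample amino acids, Rag GTPases on the lysosome bring these factors to the kinase complex mTORC1, whose phosphorylation keeps Tfeb and Tfe3 in the cytosol. Folliculin, in complex with Fnip1 or Fnip2, activates RagC and RagD and is needed for that step. Calcium released from lysosomes activates calcineurin, which dephosphorylates Tfeb and lets it enter the nucleus. Activity of Tfeb and Tfe3 is thus set largely by location and not by RNA level. Mitf is best known in pigment cells, mast cells and osteoclasts, and it has several promoters of which the most downstream is used in melanocytes.

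Several starts feed the Mitf RNA, and the sequences before them are shown because the deposited value is a sum over the whole gene. RefSeq lists 3 starts for Mitf on the plus strand of GRCm38 chromosome 6, and the 250 bases before each of them are printed 5′ to 3′, with capitals for a match to any of the motifs searched. The first lies at chr6:97806808-97807057, the second at chr6:97929567-97929816 and the third at chr6:97991533-97991782.
Mitf start 1: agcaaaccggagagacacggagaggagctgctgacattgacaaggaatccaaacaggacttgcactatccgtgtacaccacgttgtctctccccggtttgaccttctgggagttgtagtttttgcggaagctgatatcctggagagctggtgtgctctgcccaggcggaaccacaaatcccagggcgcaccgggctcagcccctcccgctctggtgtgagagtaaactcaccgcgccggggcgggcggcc
Mitf start 2: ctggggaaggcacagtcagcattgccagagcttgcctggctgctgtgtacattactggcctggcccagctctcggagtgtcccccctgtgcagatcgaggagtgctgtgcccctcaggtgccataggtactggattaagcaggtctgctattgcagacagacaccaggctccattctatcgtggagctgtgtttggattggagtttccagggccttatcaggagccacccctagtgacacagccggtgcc
Mitf start 3: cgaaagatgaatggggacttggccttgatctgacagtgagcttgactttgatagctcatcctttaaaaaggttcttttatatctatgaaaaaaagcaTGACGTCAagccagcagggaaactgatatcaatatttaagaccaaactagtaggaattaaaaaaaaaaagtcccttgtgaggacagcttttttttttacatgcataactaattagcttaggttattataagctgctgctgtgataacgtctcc

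The motifs searched on both strands were CACGTG, its CLEAR form (the same letters with GT before and AC after, so that each match is also an E-box match), CATGTG (on the other strand CACATG), the cyclic AMP response element TGACGTCA, and GTCATATGAC. The last of these was added after the promoters had been read, and is the longest word, of 10 bases, that the windows of Fnip1 and Fnip2 share. In the windows of 300 bases around the RefSeq starts (250 before and 50 after), TGACGTCA occurred before the third Mitf start, with its first base at position -153, and in Flcn at position -49. That motif is held by 1.79% of all 32851 windows of the same length. CACGTG occurred in Fnip1 at position -75, and 7.15% of all windows hold it. GTCATATGAC occurred in Fnip2 at position -106 and in Fnip1 at position 17, counted from 1 at the start. It is held by 14 of the 32851 windows, or 0.0426%. Because it was picked from the Fnip1 and Fnip2 windows, and a word of 10 bases is rare by its length, this share is no support for a role. These letters were not found in the windows of Tfeb, Tfe3 or Tfec, and a match describes the letters only.

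The matches in the folliculin genes are printed as 30 bases each, in the direction of transcription and with the motif in capitals. The label shared element marks the word that Fnip1 and Fnip2 share, and no function of it was tested. They lie at chr11:59810070-59810099 on the minus strand for Flcn, at chr11:54438092-54438121 and chr11:54438185-54438214 on the plus strand for Fnip1, and at chr3:79567766-79567795 on the minus strand for Fnip2 (RefSeq, GRCm38.p6).
Flcn: aatgtcagtttTGACGTCAcccctgcagaa
Fnip1, E-box: tcagtttgctgcCACGTGatacggctcgtc
Fnip1, shared element: actaatttctGTCATATGACtgaggcgccc
Fnip2, shared element: ggccggctccGTCATATGACcggccggcgg

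The targeted gene Tmem63a stood at 4.91 FPKM in the OCaR1-/- group and 18.3 FPKM in wild type (log2 fold change -1.90, and q = 0.00152 as listed in the authors' deposited table). Of 11478 tested genes, 866 were called, 482 of them higher and 384 lower in OCaR1-/- mice. The median log2 fold change over all tested genes was -0.03.

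Mitf RNA was more abundant in the pancreas of OCaR1-/- mice, and the related Tfeb and Tfe3 were listed at lower levels there. Mitf (ENSMUSG00000035158, chr6:97807058-98021349 in the deposited table) had 5.27 FPKM in the OCaR1-/- group and 0.619 FPKM in wild type, an 8.52-fold difference (log2 fold change 3.09, and q = 0.00152 as listed in the authors' deposited table). Tfeb, a main activator of lysosomal genes, had 3.10 FPKM in the OCaR1-/- group and 5.21 FPKM in wild type. Its log2 fold change was -0.75, and it was not called (the authors' deposited table lists q = 0.0857). Tfe3, whose roles overlap those of Tfeb, had 3.70 FPKM in the OCaR1-/- group and 4.49 FPKM in wild type, with a log2 fold change of -0.28 and it was uncalled (the authors' deposited table lists q = 0.658).

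Of the 6 members with a row, 1 was called, Mitf, which was higher, against 7.54% of all tested genes called in either direction and 4.20% called higher (3.35% lower). The members were chosen with these values in view, so their count is a description. The fold change of Mitf depends on a low wild-type value: after adding 0.5 FPKM to each value its log2 fold change was 2.37, and after adding 1 FPKM it was 1.95.

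Tfec, which in mice is expressed mainly in macrophages, has no row. Every row exceeds 1 FPKM in at least 1 genotype, and by the rule used to choose the genes Tfec is taken as under 1 FPKM in both. A missing row is no measured level by itself, since the acinar enzyme genes Ctrb1, Cela2a, Amy2a4 and Amy2a5 were not analysed here for the same reason.

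The folliculin genes had log2 fold changes close to 0. Flcn, which encodes the GTPase-activating subunit for RagC and RagD, had 6.18 FPKM in the OCaR1-/- group and 5.88 FPKM in wild type, and its log2 fold change was 0.07 (the authors' deposited table lists q = 0.909). Fnip1, which encodes a folliculin partner, had 2.55 FPKM in the OCaR1-/- group and 2.92 FPKM in wild type (log2 fold change -0.20, and q = 0.377 as listed in the authors' deposited table). Its paralog Fnip2 had 1.74 FPKM in the OCaR1-/- group and 1.82 FPKM in wild type (log2 fold change -0.07, and q = 0.947 as listed in the authors' deposited table). None of the folliculin genes was called, and a q above the threshold does not show equal levels. Summed over Flcn, Fnip1 and Fnip2, the level was 10.5 FPKM in the OCaR1-/- group and 10.6 FPKM in wild type.

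**Figure D1:**
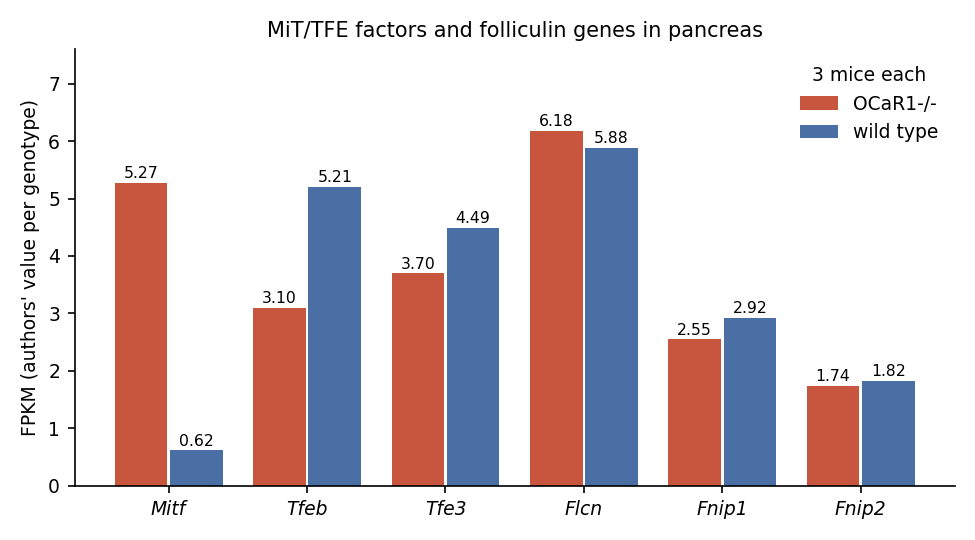
Levels of the 6 measured members in FPKM, as deposited by the authors, with 1 bar per genotype that combines 3 mice; no error can be drawn. Mitf stands at 5.27 FPKM in OCaR1-/- mice and 0.619 FPKM in wild type, while the bars of Flcn, Fnip1 and Fnip2 are nearly level between genotypes.

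The order of the members by level differed in the place of Mitf and Tfeb. In OCaR1-/- mice the order by FPKM was Flcn, Mitf, Tfe3, Tfeb, Fnip1 and Fnip2. In wild type it was Flcn, Tfeb, Tfe3, Fnip1, Fnip2 and Mitf. Mitf thus held place 2 in the OCaR1-/- group and place 6 in wild type, and Tfeb place 4 in the OCaR1-/- group and place 2 in wild type. Without values of single mice, whether neighbours in these orders differ beyond their spread was not tested. Among all tested genes, the level of Mitf lay at percentile 53.9 in OCaR1-/- mice and at percentile 0.967 in wild type. Since every row exceeds 1 FPKM in at least 1 genotype, Mitf has a row only through its OCaR1-/- value. Genes low in both genotypes are absent, so a gene under 1 FPKM in wild type lies near the bottom by that filter. The low percentile is thus no result of its own. The other members lay between percentiles 17.6 and 59.0 in OCaR1-/- mice and between 20.1 and 56.9 in wild type.

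The make-up of Mitf, Tfeb and Tfe3 RNA was also read from the levels, which FPKM scales per length. In bulk RNA these transcripts may lie in different cells, so the shares do not show which proteins pair. Tfeb and Tfe3 were not called. Mitf, Tfeb and Tfe3 summed to 12.1 FPKM in the OCaR1-/- group and 10.3 FPKM in wild type, a 1.17-fold difference. Mitf accounted for 43.7% of that sum in the OCaR1-/- group and 5.997% in wild type. Tfeb accounted for 25.7% in the OCaR1-/- group and 50.5% in wild type, and Tfe3 for 30.7% in the OCaR1-/- group and 43.5% in wild type. The level of Mitf was 1.70 times that of Tfeb in OCaR1-/- mice and 0.119 times in wild type. Tfeb and Tfe3 together gave 6.80 FPKM in OCaR1-/- mice and 9.70 FPKM in wild type, a difference of -2.90 FPKM (OCaR1-/- minus wild type), beside 4.65 FPKM for Mitf.

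**Figure D2:**
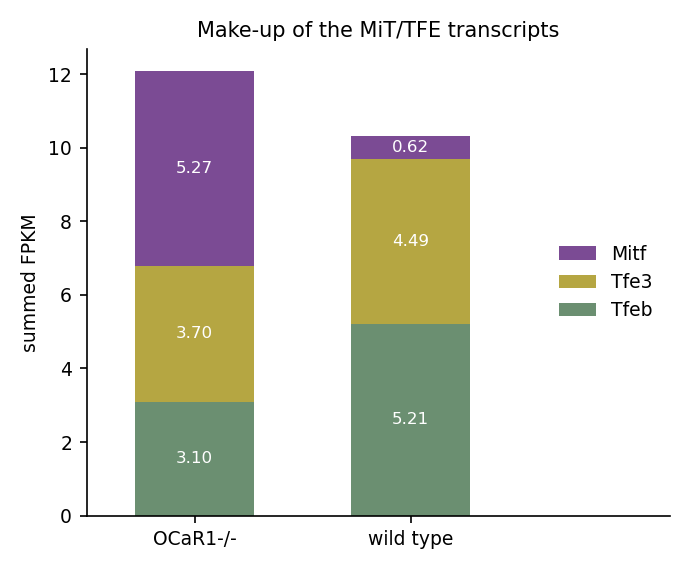
FPKM of Mitf, Tfe3 and Tfeb stacked for each genotype, 1 authors' value per gene and genotype (3 mice each). The summed height is 12.1 FPKM in OCaR1-/- mice and 10.3 FPKM in wild type, and Mitf makes up 43.7% of it in OCaR1-/- mice and 5.997% in wild type.

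Among the 11441 tested genes with a fold change, Mitf was at place 20 by rise, and Tfeb was at place 203 by fall. Tfe3 was at place 1805 by fall, Fnip1 at 2785 and Fnip2 at 5053, while Flcn was at place 3954 by rise. Among all called genes that rose and have a fold change, 476 in number, Mitf was at place 7. Among the protein-coding ones, 452 in number and without the immunoglobulin segments, it was at place 2. Of all tested genes, 23 stood at 5 FPKM or more in OCaR1-/- mice and under 1 FPKM in wild type. Of these, 2 were called, and 1 of the 23, Mitf, was protein-coding. The others were rows of short RNAs, a pseudogene and immunoglobulin segments, and many of them are listed at 0 in wild type. The cuts lie close to the known values of Mitf, 5.27 FPKM in OCaR1-/- mice and 0.619 FPKM in wild type. Its standing as the 1 protein-coding gene depends on them. Retn, with 4.74 FPKM in OCaR1-/- mice and 0.963 FPKM in wild type, fell just outside. For Tfeb, 632 tested genes moved at least as far in either direction (0.75 on the log2 scale), and 272 of them (43.0%) were called. For Mitf, itself counted, 24 tested genes moved at least as far (3.09), and 9 of them (37.5%) were called. Of all tested genes 7.54% were called, and these shares are taken among large differences only.

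**Figure D3:**
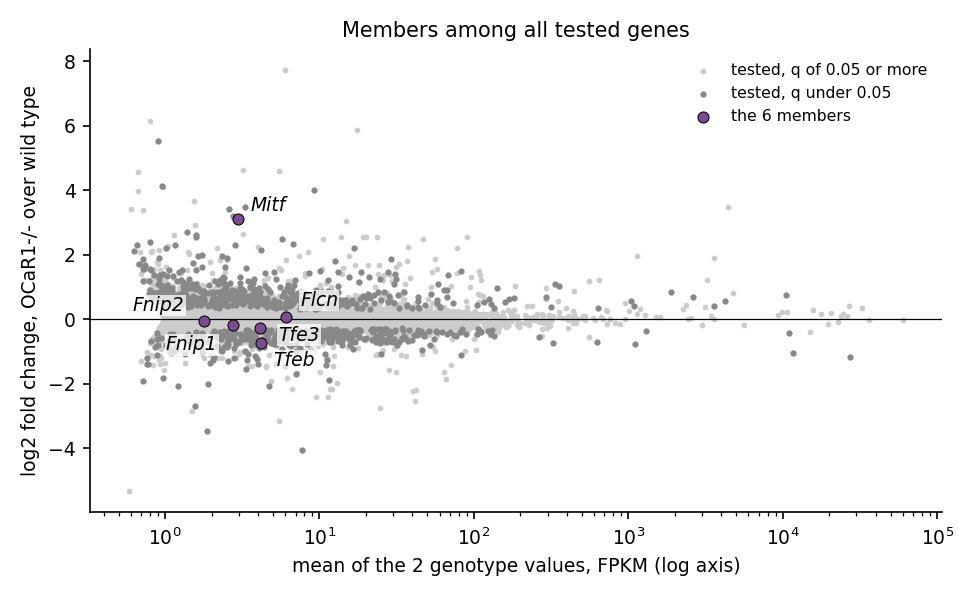
Log2 fold change (OCaR1-/- over wild type) of the 11441 tested genes with a fold change against the mean of the genotype values in FPKM on a log axis; dark grey points have q under 0.05 in the authors' deposited table. Mitf lies at 3.09, Tfeb at -0.75, and the other members between -0.28 and 0.07.

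By a rule of likeness fixed for naming, the genes nearest to Mitf were sought among 1061 tested genes whose wild-type FPKM lay within 2 times that of Mitf, by the distance between log2 fold changes over the pair of group values. The 5 nearest were Ighv1-55 (log2 fold change 3.18), the pseudogene Gm15198 (2.92), Igkv12-44 (3.48), and a pair of further kappa variable segments (3.40 and 2.70). The immunoglobulin segments, 4 of the 5, were called. Of the 1061 genes searched, 133 were called, and of all tested genes 7.54%. Because the 5 were picked for a difference about as large as that of Mitf, their called count is a description only. Genes under 1 FPKM in wild type also have a row only through the OCaR1-/- value. Gm15198 was not called and shares its interval with another gene. With 1 value per genotype, likeness of this kind reflects only the size of the difference.

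Genes around Mitf had smaller differences. Frmd4b, the nearest row at lower coordinates and 189.5 kb away, had 4.24 FPKM in OCaR1-/- mice and 3.86 FPKM in wild type (log2 fold change 0.13, and q = 0.887 as listed in the authors' deposited table). On the other side, 904 kb away, lay Eif4e3, an initiation factor gene with 1.10 FPKM in OCaR1-/- mice and 0.837 FPKM in wild type (log2 fold change 0.40, not called). Its interval is shared with Foxp1, a forkhead factor gene, which had 6.39 FPKM in OCaR1-/- mice and 10.4 FPKM in wild type (log2 fold change -0.70, not called). Within 2 Mb, a window chosen after the values were seen, 8 other tested genes had a median of 0.06 and a range from -0.70 to 0.40 on the log2 scale. The 1 called among them, Arl6ip5, rose by 0.37, beside 7.54% called of all tested genes. The deposited interval of Mitf overlaps that of no other row, and none of the 6 members shares an identical interval with another gene. For Tfeb, the neighbour Tomm6 had a log2 fold change of 0.04, and for Tfe3 the neighbours Ccdc120 and Gripap1 had 0.13 and 0.21. Mprip and Cops3 beside Flcn had 0.20 and -0.18, P4ha2 and Rapgef6 beside Fnip1 had 0.36 and -0.19, and Rapgef2 and Ppid beside Fnip2 had 0.18 and -0.01; none of these neighbours was called. The other row beside Tfeb, n-R5s28, was not tested by the authors.

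**Figure D4:**
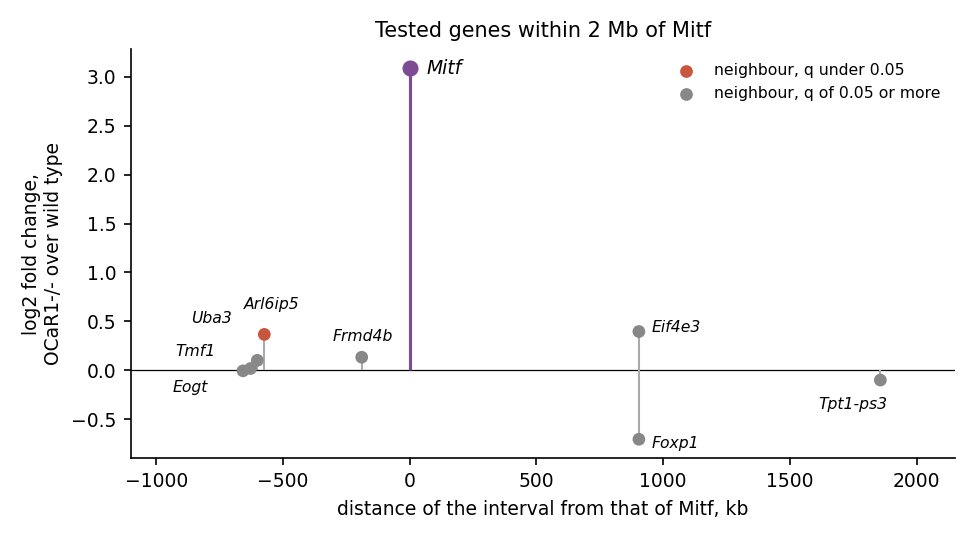
Log2 fold change (OCaR1-/- over wild type) of the 8 tested genes within 2 Mb of Mitf against the distance in kb between their intervals and that of Mitf, which is drawn at 0. The neighbours lie between -0.70 and 0.40, and Mitf at 3.09.

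The annotation limits what the gene value of Mitf can show. GENCODE M21 lists 8 transcripts for Mitf, 6 of them protein-coding and each with its own start, over 214 kb and 6196 exonic bases. Tfeb has 12 protein-coding transcripts from 11 starts, Tfe3 8, Flcn 3, and Fnip1 and Fnip2 2 each. The deposited interval of Tfeb, Tfe3, Flcn and Fnip1 is that of M21. The interval of Fnip2 in the table starts at 79336661 on chromosome 3, against 79455974 in M21, and that of Mitf starts at 97807058, against 97807052 in M21. Which Mitf start or exons gave the reads was not tested, since the values are sums over transcripts.

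Over the 5 lists of regulators, 76 tested genes had 2 called higher and 6 lower, or 10.5% in all beside 7.54% for the table. By direction, 2.63% were called higher and 7.89% lower, beside 4.20% higher and 3.35% lower for the table. At an unadjusted Cuffdiff p under 0.05 there were 15 of the 76, beside 2006 of all 11478 tested genes. The regulators had a median log2 fold change of -0.05 beside -0.03 for all tested genes. These lists were written with earlier results of these data known. The genes described next are taken from them by the same naming rule: called genes and those nearest to a call.

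The Rag GTPases and the Ragulator subunits, the platform on which folliculin acts, had 0 of 8 tested genes called by Cuffdiff. At its unadjusted p under 0.05 there were 0 of the 8, beside 2006 of all 11478 tested genes. Their median log2 fold change was -0.10. Lamtor2, a Ragulator subunit gene, had 64.6 FPKM in OCaR1-/- mice and 72.1 FPKM in wild type (the authors' deposited table lists q = 0.517), and Lamtor4 had 19.5 FPKM in OCaR1-/- mice and 21.5 FPKM in wild type. The log2 fold changes of the platform genes lay between -0.16 and 0.07.

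Among 15 tested genes of amino acid sensing upstream of the Rags, 1 was called higher and 2 lower, with a median of -0.01. That is 20% called in a short list, beside 7.54% of all tested genes (4.20% higher and 3.35% lower). Sesn1 and Sesn2 encode sestrins, which restrain mTORC1 and of which the second is a leucine sensor. Sesn1 rose to 18.6 FPKM in OCaR1-/- mice, against 13.1 FPKM in wild type. Sesn2 fell to 2.21 FPKM in OCaR1-/- mice, against 3.39 FPKM in wild type. Itfg2, a subunit gene of the KICSTOR scaffold, fell to 2.40 FPKM in OCaR1-/- mice, against 3.24 FPKM in wild type (the authors' deposited table lists q = 0.0447). Sesn1 and Sesn2 thus changed in opposite directions, and the related Sesn3, at 1.18 FPKM in OCaR1-/- mice and 1.34 FPKM in wild type, was uncalled.

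Of 12 tested genes of mTORC1 and its inhibitor TSC, 2 were called (16.7%), both lower. Of all tested genes 7.54% were called, 3.35% of them all being lower. In this list 11 of the 12 had a log2 fold change below 0 (median -0.19), as did 55.2% of all tested genes with a fold change. Eif4ebp1, the gene of a translation repressor that mTORC1 phosphorylates, fell to 74.1 FPKM in OCaR1-/- mice, against 103 FPKM in wild type. Deptor, an inhibitory subunit gene of mTOR complexes, fell to 13.3 FPKM in OCaR1-/- mice, against 18.5 FPKM in wild type. Rptor, the subunit that recruits substrates, had 3.45 FPKM in OCaR1-/- mice and 4.45 FPKM in wild type and was uncalled (the authors' deposited table lists q = 0.467).

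The enzymes and adaptors that set the location of these factors included 25 tested genes, of which 0 were called higher and 2 lower (median -0.05). That is 8% called, near the 7.54% of all tested genes (4.20% higher and 3.35% lower). Ppp3ca encodes a catalytic subunit of calcineurin, and it fell to 12.5 FPKM in OCaR1-/- mice, against 18.7 FPKM in wild type (log2 fold change -0.58, and q = 0.00404 as listed in the authors' deposited table). Prkaa2, a catalytic subunit gene of the energy-sensing kinase AMPK, fell to 1.28 FPKM in OCaR1-/- mice, against 2.02 FPKM in wild type. Of genes for the phosphoserine-binding adaptors that hold Tfeb in the cytosol, Ywhah had 16.3 FPKM in OCaR1-/- mice and 11.5 FPKM in wild type (the authors' deposited table lists q = 0.0814). Ywhag had 12.8 FPKM in OCaR1-/- mice and 15.2 FPKM in wild type (the authors' deposited table lists q = 0.170), so that these uncalled values lay on opposite sides.

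Other factors that bind E-boxes, and repressors of CLEAR genes, had 1 of 16 tested genes called (median 0.08). That is 6.25%, near the 7.54% of all tested genes. Srebf2, the activator of cholesterol synthesis genes, rose to 5.21 FPKM in OCaR1-/- mice, against 3.90 FPKM in wild type. Bhlhe40, a repressor that binds E-boxes, had 8.38 FPKM in OCaR1-/- mice and 5.22 FPKM in wild type (the authors' deposited table lists q = 0.0800).

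Known target genes of Tfeb and Tfe3 had a share called higher near that of the whole table. Over 3 lists with CLEAR genes, 49 tested genes had 2 called higher and 0 lower (4.08% called, beside 7.54% of the table). By direction, 4.08% were called higher and 0 lower, beside 4.20% higher and 3.35% lower for the table. At an unadjusted Cuffdiff p under 0.05 there were 5 of the 49, beside 2006 of all 11478 tested genes. The median log2 fold change of the 49 was 0.00, beside -0.03 for all tested genes. Of 19 hydrolase genes, Tpp1, a lysosomal peptidase, was the 1 called, with 5.90 FPKM in OCaR1-/- mice and 4.63 FPKM in wild type (the authors' deposited table lists q = 0.0329). The median of the hydrolase genes was -0.03. Of 16 genes of the lysosomal membrane and proton pump (median 0.07), Atp6v1b2, a subunit of the vacuolar ATPase, was the 1 called, at 11.6 FPKM in OCaR1-/- mice and 8.59 FPKM in wild type (the authors' deposited table lists q = 0.0472).

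The genes of autophagy and feedback, among which are Flcn, Fnip1 and Fnip2 themselves, had 0 of 14 called by Cuffdiff and a median of -0.09. At its unadjusted p under 0.05 there were 0 of the 14, beside 2006 of all 11478 tested genes. Sqstm1, an autophagy receptor gene, had 96.7 FPKM in OCaR1-/- mice and 115.6 FPKM in wild type (the authors' deposited table lists q = 0.348). Ppargc1a, the regulator of mitochondrial genes, had 1.07 FPKM in OCaR1-/- mice and 0.653 FPKM in wild type (the authors' deposited table lists q = 0.351). Rows of Gpnmb, a target of the family in macrophages and osteoclasts, were not analysed here.

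The same comparison was made by promoter letters in place of target lists. Among tested genes with a RefSeq window that holds the CLEAR form of the E-box, 71 in number, 0 were called higher and 2 lower, and the median log2 fold change was -0.04. Over all 8126 tested genes with a window the median was also -0.04 and 7.43% were called. For the shorter E-box CACGTG, 989 tested genes had 21 called higher and 32 lower (5.36%), with a median of -0.06. For the CATGTG form that Mitf also binds, 804 tested genes had 35 called higher and 29 lower (7.96%), with a median of -0.03.

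**Figure D5:**
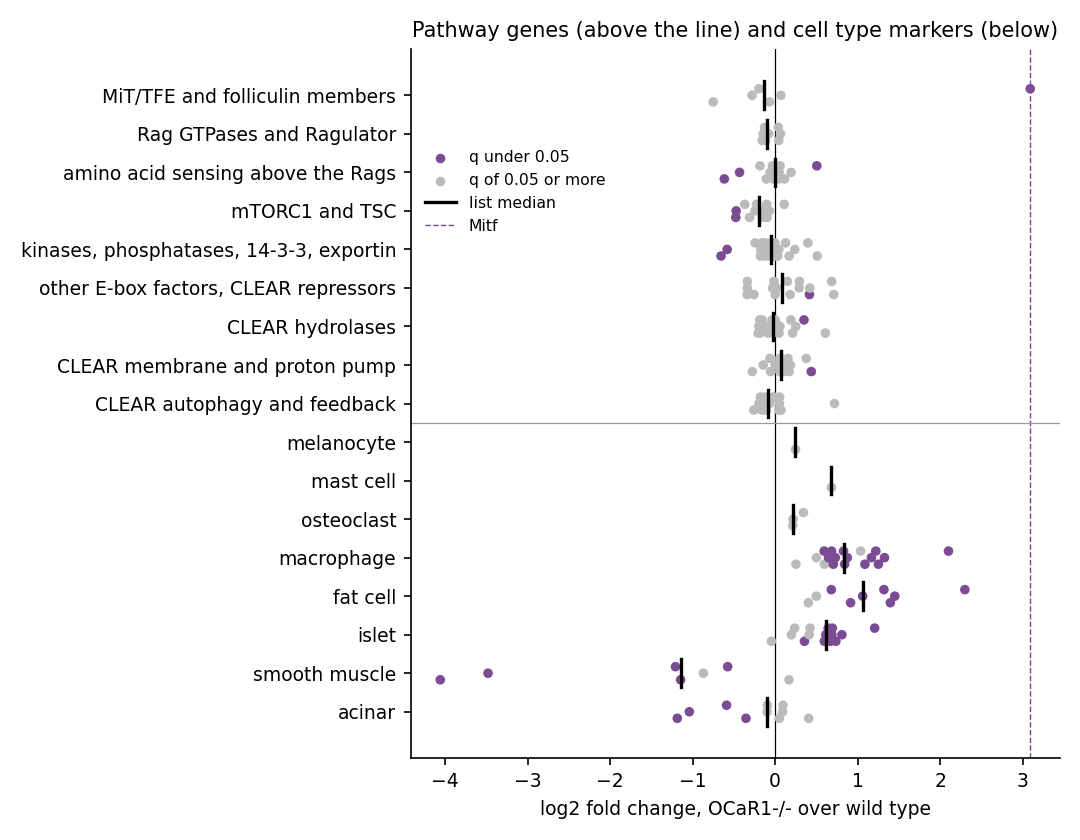
Log2 fold change (OCaR1-/- over wild type) of each measured gene in the pathway lists and, below the grey line, in the lists of cell type markers; purple points have q under 0.05 in the authors' deposited table, black bars are list medians and the dashed line is Mitf at 3.09. The medians of the pathway lists lie between -0.19 and 0.08, while those of macrophage, fat cell and islet markers lie between 0.61 and 1.06.

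Markers of several other cell types moved in the same comparison, and their part in the Mitf value was not tested. In bulk RNA, fewer cells of a type and less RNA per cell cannot be told apart. The marker lists together had 40 of 64 tested genes called (62.5%), beside 7.54% of the table. By direction, 48.4% were called higher and 14.1% lower, beside 4.20% higher and 3.35% lower for the table. Of 18 tested macrophage genes, 14 were called higher and 0 lower, with a median log2 fold change of 0.84 and summed levels of 144 FPKM in OCaR1-/- mice and 82.3 FPKM in wild type. Clec7a, the gene of a receptor for fungal glucans, had the highest log2 fold change of that list, at 2.10, and Mpeg1 had 1.32 and Lyz2 1.25. Of 9 fat cell genes, 7 were called higher (median 1.06), and Retn, the resistin gene, had the highest log2 fold change, at 2.30. Of 15 islet genes, 10 were called higher (median 0.61), up to 1.21 for G6pc2. Over all marker lists, 0 of 64 tested genes had a log2 fold change as high as the 3.09 of Mitf.

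Few marker genes of the cell types in which Mitf is best known have a row, which gives no level for the others. Of 12 mast cell genes, 11 have no row, among them Cpa3, Tpsb2 and Fcer1a, and Kit, the stem cell factor receptor gene, had 3.17 FPKM in OCaR1-/- mice and 1.99 FPKM in wild type (the authors' deposited table lists q = 0.374). Of 11 melanocyte genes, 10 have no row, among them Tyr, Dct and Pmel, and Ednrb had 1.97 FPKM in OCaR1-/- mice and 1.67 FPKM in wild type (the authors' deposited table lists q = 0.349). Of 9 osteoclast genes, 3 have a row and 0 were called by Cuffdiff. At its unadjusted p under 0.05 there were 2 of the 3, beside 2006 of all 11478 tested genes. Ctsk, the cathepsin K gene, had 2.48 FPKM in OCaR1-/- mice and 1.95 FPKM in wild type.

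Acinar genes, which mark the main cell type of the pancreas, were abundant in both groups: the 10 measured summed to 128458 FPKM in OCaR1-/- mice and 148553 FPKM in wild type. Of these, 4 were called lower and 0 higher, beside 3.35% lower and 4.20% higher of all tested genes. The median log2 fold change of the acinar genes was -0.10, with 4 of the 10 above 0. The values ran from -1.19 for the elastase gene Cela1 to 0.41 for Cel, a lipase gene that was uncalled. At q under 0.01, 1 acinar gene was called lower. Ptf1a, a central acinar transcription factor, fell to 27.2 FPKM in OCaR1-/- mice, against 40.9 FPKM in wild type. Smooth muscle genes had 5 of 7 called lower (median -1.14), summing to 31.9 FPKM in OCaR1-/- mice and 67.9 FPKM in wild type. Actg2, the gamma actin of visceral smooth muscle, had 0.878 FPKM in OCaR1-/- mice and 14.6 FPKM in wild type.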

How the data were processed

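Polyadenylated RNA of mouse pancreas was sequenced as single reads of 50 bases, per the labels' protocols. STAR 2.5.1b, Cufflinks 2.2.1, Cuffdiff and GRCm38 are named in the submitters' processing notes; for annotation release, strand use and multimapped reads, the entry is: not given in the sources used here. Per genotype, the authors deposited 1 FPKM value with the p-value and q-value of their test, per the file headers. Columns of single samples numbered 0. The deposited fold change column, which holds 352 spreadsheet error cells, was not used.

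Log2 fold changes were recomputed with Python 3.11.15 and pandas 2.3.3 as OCaR1-/- over wild type, with no pseudocount; values under 0.01 FPKM counted as listed at 0. Calls are the authors' (q under 0.05), and 538 rows marked not tested were left out of counts. The smallest p, 5e-05, is shared by 394 genes. The scripts were tested on simulated data. P-values are those of the authors' Cuffdiff test. How that test used the 3 libraries per genotype, which the labels name as separate mice, cannot be seen without columns of single samples. Intervals are 1-based.

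Members and lists were chosen with earlier results of these data known. The text names every member, Tmem63a, up to 6 called and 2 uncalled genes of each list (smallest q, or p), the 5 genes most like Mitf (3 by symbol and the other two by kind), and the nearest row on each side of each member; where many qualify, not all are printed, and some results are not reported here. Genes without a row, Arl6ip5 and genes counted by promoter letters were named beyond that rule. Promoter windows are from RefSeq (GRCm38.p6), where all 7 genes matched. Alternatives were pseudocounts, recentring, stricter q, repeated adjustment, a level filter and leaving out shared intervals.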

Additional observations from a re-analysis of the deposited data

How the results depend on the processing

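All 26 alternative values for the members kept their direction or count. For each fold change these were 2 pseudocounts and recentring on the median. For the calls they were stricter q, repeated adjustment, a level filter and leaving out shared intervals. A pseudocount added to both values cannot change a sign, and a stricter q or a filter cannot add calls. Many of the 26 outcomes were thus fixed in advance, and their number is no measure of robustness. At q under 0.01 the table had 311 genes called higher and 211 lower in OCaR1-/- mice, against 482 and 384, and the pathway lists 2 called higher, against 4. With at least 5 FPKM in either genotype, 229 genes of the table were called higher, 3 pathway genes lower (against 6) and 16 marker genes higher (against 31). Of the counts for single lists, 119 of 128 stayed within 1.5 times. Many of these counts were 0 at the start and could not rise under a stricter q or a filter, so 119 overstates their stability. Of the list medians, 56 of 62 moved by less than 0.1 on the log2 scale. The level filter on medians was chosen after seeing the data. No paired analysis was possible because the table holds no column per mouse, and leaving out each replicate was not run for the same reason. Depth is unknown, so no counting error can be set beside the low wild-type value of Mitf.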

Other observations

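The word GTCATATGAC, picked because both Fnip1 and Fnip2 hold it, lies in 14 RefSeq promoter windows in all. Of the genes that hold it, 4 were tested. Besides the Fnip genes these are Cwc25, a splicing factor gene with 1.93 FPKM in OCaR1-/- mice and 1.90 FPKM in wild type, and Fmo2, a flavin monooxygenase gene with 23.8 FPKM in OCaR1-/- mice and 14.9 FPKM in wild type (the authors' deposited table lists q = 0.622). By Cuffdiff 0 of the 4 were called. The cyclic AMP response element TGACGTCA, found before the third Mitf start and at Flcn, occurs in windows of 298 tested genes, of which 14 were called higher and 6 lower (6.71%, beside 7.43% of tested genes with a window), with a median log2 fold change of -0.02. The first of these was chosen from the windows themselves, and the values describe it only.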
